A study of Mus musculus with 2 samples.

Results

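The Schlafen family genes Slfn1, Slfn2, Slfn3, Slfn4, Slfn5, Slfn8 and Slfn9 were described in GR1+ cells of mouse mammary tumors. These 7 of 32285 listed genes were chosen by name as a gene family when earlier values of both libraries, by cell class, were already known. Their levels by cell class and library are therefore given as a description, with no test. Of the other features named for the family, Slfn14 had 1 UMI in the retained cells of 4T1P and 0 in 4T1M, Slfnl1 had 0 and 1, and Slfn5os, an antisense transcript that overlaps Slfn5, had 0 in both. UMIs (unique molecular identifiers) count tagged transcript molecules and were not scaled by transcript length.

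The study compared tumors of 4T1, a mouse mammary carcinoma line grown in BALB/c mice of 6 to 8 weeks, that do not respond to anti-PD1 (4T1P, the parental line) or do respond (4T1M, a mutagenized derivative). GR1+ cells were isolated with magnetic beads from tumors harvested before any treatment, and 5 mice per condition were pooled, as the series' design text gives it, into 1 droplet library each. The GR1 antibody binds Ly6G and Ly6C, so that granulocytic and monocytic cells were collected together. The methods call 4T1M a clone but describe the mutagenized cells as multiclonal. With 1 library per condition, differences between mice, tumors, cell lines and libraries cannot be told apart, no p-value was computed, and every interval given is a 95% interval that covers counting error only.

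The cell filter asked for 500 to 5000 genes per barcode, with mitochondrial transcripts making up no more than 10% of its UMIs, which left 1726 of 2947 barcodes in 4T1P and 3461 of 5004 in 4T1M, and 5 of all barcodes occurred in both libraries. Cells with at least 1.5% of their UMIs from S100a8 and S100a9 and under 0.5% from C1qa, C1qb, C1qc and Apoe were called neutrophils (612 and 1684 cells, median 3054.5 and 2956 UMIs). Macrophages had less than 1.5% from S100a8 and S100a9 and at least 0.3% from C1qa, C1qb, C1qc, Apoe, Csf1r, Cd68 and Fn1 (797 and 974 cells, median 9703 and 9213.5 UMIs). T/NK cells had UMIs of at least 2 of Cd3d, Cd3e, Cd3g, Trac, Trbc2 and Nkg7 (74 and 98 cells, median 5640 and 5596.5 UMIs). Genes checked that the rules did not use, Cd14 excepted, also set the classes apart. Ly6g, a neutrophil surface antigen, was at 308 and 226 CPM (UMIs of the gene per 1000000 UMIs of the class) in neutrophils of 4T1P and 4T1M, against 0.343 and 1.29 CPM in macrophages. Adgre1, which encodes the macrophage antigen F4/80, was at 107 and 102 CPM in macrophages, against 2.40 and 4.73 CPM in neutrophils. Cd14, another macrophage gene checked, was higher in neutrophils (3084 and 2989 CPM) than in macrophages (1289 and 1299 CPM). Other genes were less clean than Ly6g, and Mmp9 in 4T1P macrophages reached 14.5% of its neutrophil level. The T/NK check genes Cd2, Lck, Il2rb, Skap1, Gzma and Klrd1 together made up 1483 and 1448 CPM of T/NK cells and at most 2.86 CPM of either myeloid class.

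Schlafen proteins are known as regulators of proliferation and differentiation in immune cells and as products of interferon-stimulated genes. In mice they fall into short forms (Slfn1 and Slfn2), intermediate forms (Slfn3 and Slfn4) and long forms with a helicase-like region (Slfn5, Slfn8 and Slfn9), and the family is known for cleaving or protecting tRNA and other RNA. Type I interferons signal through IFNAR and the kinases JAK1 and TYK2 to a transcription factor complex that includes IRF9 and binds the interferon-stimulated response element (ISRE) of its target genes.

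All 7 genes lie side by side on chromosome 11 of GRCm38. In order of position these are Slfn5 (82951349 to 82964840, plus strand), Slfn9 (82978390 to 82991830, minus), Slfn8 (83002158 to 83020810, minus), Slfn2 (83065112 to 83070678, plus), Slfn1 (83116849 to 83122670, plus), Slfn4 (83175186 to 83190216, plus) and Slfn3 (83191330 to 83215154, plus). The genes are partly alike in sequence. Of the runs of 50 bases in their annotated transcripts, 0% in Slfn5 and 0.606% in Slfn1 also occurred in another Schlafen transcript, against 4.27% in Slfn2, 7.39% in Slfn3, 8.15% in Slfn4, 11.2% in Slfn9 and 14.6% in Slfn8. Slfn3 and Slfn4 shared most with each other, and Slfn8 and Slfn9 with the pseudogene Slfn10-ps, which was not analysed here. How reads that fit several genes were counted is not given in the sources used here, so levels of Slfn3 in particular, whose neighbor Slfn4 was far more abundant, are uncertain.

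Promoter windows were read from RefSeq (GRCm38.p6), from 250 bases before to 50 bases after each annotated start, and all 7 genes matched. They were searched on both strands for an ISRE-type pattern, GAAANNGAAA, and for TTCNNNGAA, the pattern of the gamma-activated sequence. The ISRE-type pattern occurred in the windows of 3 of 7 genes, Slfn5, Slfn8 and Slfn9, and in 3.99% of the 27025 genes with a window. The TTCNNNGAA pattern occurred in 0 of 7 and in 9.55% of all genes. The 3 windows with a match and that of Slfn4, which held none, are shown because these genes differ below in how they follow interferon-stimulated genes. Each is written 5′ to 3′ along the gene's strand, with the match in capitals.
Slfn5 (chr11:82951852-82952151, plus): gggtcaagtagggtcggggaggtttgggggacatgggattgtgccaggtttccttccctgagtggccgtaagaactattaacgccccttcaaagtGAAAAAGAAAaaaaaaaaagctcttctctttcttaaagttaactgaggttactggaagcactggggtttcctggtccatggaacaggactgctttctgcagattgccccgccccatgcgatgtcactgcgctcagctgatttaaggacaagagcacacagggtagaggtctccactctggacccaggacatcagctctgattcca
Slfn8 (chr11:83020761-83021060, minus): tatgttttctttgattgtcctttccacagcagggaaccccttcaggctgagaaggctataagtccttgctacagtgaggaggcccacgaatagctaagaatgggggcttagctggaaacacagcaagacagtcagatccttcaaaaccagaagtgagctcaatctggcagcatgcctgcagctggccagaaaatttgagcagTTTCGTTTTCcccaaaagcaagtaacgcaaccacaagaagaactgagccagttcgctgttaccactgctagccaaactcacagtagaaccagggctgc
Slfn9 (chr11:82991781-82992080, minus): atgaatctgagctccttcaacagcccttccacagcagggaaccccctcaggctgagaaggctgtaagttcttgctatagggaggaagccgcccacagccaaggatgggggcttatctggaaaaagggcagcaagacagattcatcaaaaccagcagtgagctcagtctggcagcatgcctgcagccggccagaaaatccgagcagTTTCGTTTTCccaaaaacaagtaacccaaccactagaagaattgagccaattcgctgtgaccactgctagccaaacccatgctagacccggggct
Slfn4 (chr11:83174936-83175235, plus): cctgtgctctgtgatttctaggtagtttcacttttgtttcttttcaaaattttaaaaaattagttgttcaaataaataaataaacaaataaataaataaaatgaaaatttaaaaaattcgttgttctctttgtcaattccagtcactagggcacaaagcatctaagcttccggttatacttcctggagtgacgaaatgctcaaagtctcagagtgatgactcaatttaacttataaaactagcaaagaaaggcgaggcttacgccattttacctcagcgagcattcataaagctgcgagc
In Slfn8 and Slfn9 the match was the same 10 bases on the opposite strand, beginning at -48 and -45 from the start, and RefSeq gives Slfn8 a further start at which the same match begins at -136. In Slfn5 it began at -155 from the RefSeq start, at the head of a run of A. That window lies inside Slfn5 as placed above, where the gene begins further upstream, at 82951349. A match is a description of these letters and not a measured binding site.

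Slfn2, a short form known for keeping T cells quiescent, was the most abundant Schlafen gene in all 3 classes, and its CPM was highest in neutrophils. In T/NK cells of 4T1P, however, its interval (89.0 to 152 CPM) overlapped that of Slfn8 (53.7 to 105 CPM). The level of Slfn2 in neutrophils was 1723 CPM (1672 to 1775) in 4T1P and 2651 CPM (2611 to 2690) in 4T1M. Macrophages had 740 and 986 CPM, and T/NK cells 118 and 185 CPM. The Slfn2 intervals of neighboring classes did not overlap in either library. Slfn2 made up 60.1% and 62.1% of all Schlafen UMIs in neutrophils and 85.1% and 75.5% in macrophages.

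Slfn4 and Slfn1 were also highest in neutrophils, and more steeply than Slfn2. Slfn4, an intermediate form known from developing and activated myeloid cells, was at 719 CPM (686 to 753) in neutrophils of 4T1P and 857 CPM (835 to 880) in 4T1M, against 17.0 and 75.9 CPM in macrophages. That was 42.2-fold more in neutrophils than in macrophages in 4T1P and 11.3-fold more in 4T1M. Slfn1, a short form known to restrain growth when overexpressed in T cells, was at 305 CPM (284 to 327) and 434 CPM (419 to 451) in neutrophils and at 24.2 and 61.1 CPM in macrophages, a 12.6-fold and a 7.11-fold difference between the classes. In T/NK cells Slfn1 was at 55.7 CPM (36.7 to 81.0) and 64.1 CPM (45.1 to 88.4), above macrophages in 4T1P but with an overlapping interval in 4T1M.

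The long forms were spread more evenly over the classes. Slfn5 was at 81.5 CPM (70.7 to 93.5) and 229 CPM (218 to 241) in neutrophils, at 52.6 CPM (48.0 to 57.7) and 118 CPM (111 to 126) in macrophages, and at 49.5 CPM (31.7 to 73.6) and 45.0 CPM (29.4 to 66.0) in T/NK cells. Macrophages and T/NK cells could not be ordered for Slfn5 in 4T1P, while in 4T1M all 3 classes were apart. Slfn8 was highest in T/NK cells of 4T1P, at 76.3 CPM (53.7 to 105), with 35.6 CPM (28.6 to 43.8) in neutrophils and 23.1 CPM in macrophages. In 4T1M it was highest in neutrophils, at 80.3 CPM (73.6 to 87.5), with 48.5 CPM in macrophages and the same in T/NK cells. Slfn9 was low throughout, at 5.19 and 13.1 CPM in neutrophils, 9.71 and 14.3 CPM in macrophages, and 2.06 and 12.1 CPM (1 and 7 UMIs) in T/NK cells. Slfn3, an intermediate form, was near the limit of detection, with 0 and 12 UMIs in neutrophils, 21 and 14 in macrophages and 1 and 1 in T/NK cells.

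Macrophage genes outside the rules were also found in neutrophils. Adgre1, Ms4a7, Mrc1 and Lgmn reached 1.38% to 3.81% of their macrophage level in neutrophils of 4T1P and 2.02% to 6.32% in 4T1M. Slfn5 in neutrophils stood at 155% and 194% of its macrophage level, Slfn8 at 154% and 166%, and Slfn9 at 53.5% and 92.1%. Of the same list of macrophage genes, Ctss was at 111 and 215 CPM in neutrophils against 2171 and 2866 CPM in macrophages, and Cd14, which neutrophils are known to express, at 3084 and 2989 CPM against 1289 and 1299 CPM. The part of macrophage RNA in the neutrophil values of the long forms was not tested.

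**Figure D1:**
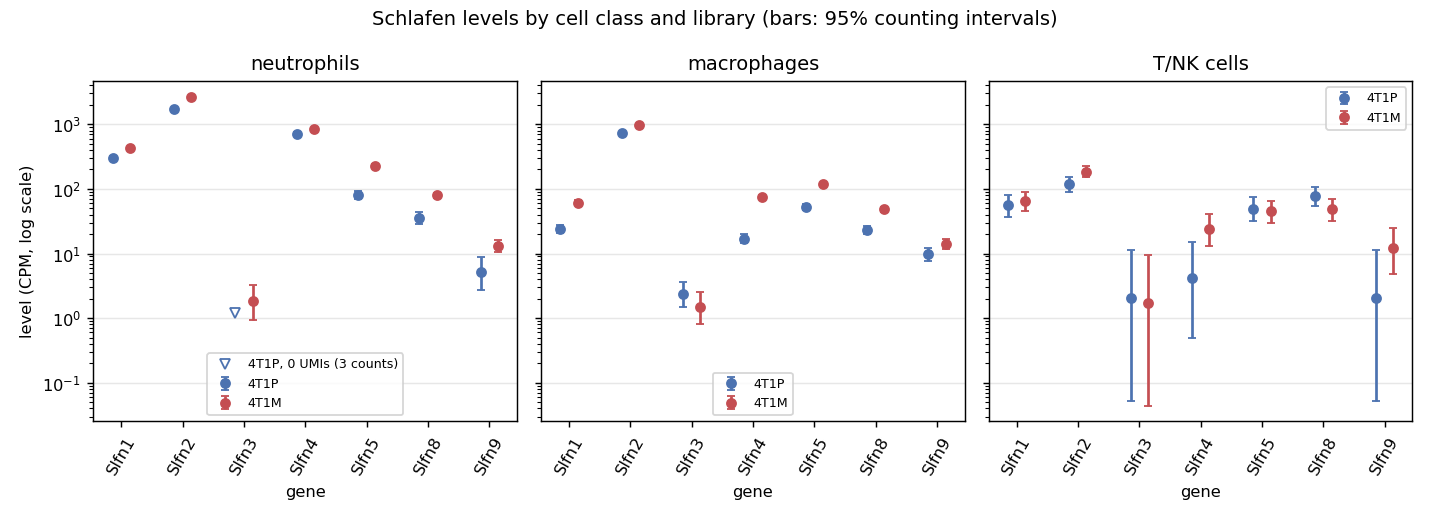
Levels of the 7 Schlafen genes in CPM (log axis) in neutrophils, macrophages and T/NK cells of 4T1P (blue) and 4T1M (red), 1 library each; points are summed UMIs, bars exact 95% Poisson intervals, and the open triangle marks the level of 3 counts where 0 UMIs were found. Slfn2, Slfn4 and Slfn1 lead in neutrophils, and the red points lie above the blue ones for every gene in neutrophils and for all but Slfn3 in macrophages.

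Within neutrophils, the order of the genes by the share of cells with a UMI followed that of their levels. After each cell was thinned to 1000 UMIs, Slfn2 was found in 69.1% of 4T1P neutrophils (423 of 612 cells, 65.3% to 72.8% by the exact binomial method) and 80.7% of 4T1M neutrophils (1356 of 1680 cells, 78.7% to 82.6%), with 4 shallower cells left out in 4T1M. Slfn4 was found in 41.8% and 44.8%, and Slfn1 in 26.5% (23.01% to 30.16%) and 32.2% (29.97% to 34.50%), with overlapping intervals for both genes. Slfn5 was found in 6.54% (4.71% to 8.79%) and 16.1% (14.4% to 18.0%), and Slfn8 in 3.27% (2.01% to 5.00%) and 6.79% (5.63% to 8.10%). In T/NK cells, Slfn4 was seen in 0 of 74 and 0 of 97 cells after thinning (exact upper limits 4.86% and 3.73%) and in 2 of 74 and 5 of 98 cells before it, and Slfn2 in 14.9% and 15.5% after thinning. Without thinning, 15.0% and 32.9% of neutrophils held a Slfn5 UMI, and the most UMIs in 1 neutrophil were 10 and 20. In macrophages, whose cells were deeper, the share with Slfn5 was 23.8% and 39.1% before thinning. After thinning it was 4.80% and 10.1%.

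Seen cell by cell, neutrophils with and without a Slfn4 UMI differed more in their share with Slfn5 than in their share with Slfn2. Among 4T1M neutrophils thinned to 1000 UMIs, Slfn5 was found in 23.8% of cells with a Slfn4 UMI (179 of 752, 20.8% to 27.0%) and in 9.91% of those without (92 of 928, 8.07% to 12.02%). In 4T1P the shares were 10.55% (7.07% to 15.0%) and 3.65% (1.96% to 6.16%). Slfn2 was found in 80.9% of the 4T1M cells with Slfn4 and 80.6% of those without, and in 66.8% and 70.8% in 4T1P. These shares have no replicate check, and a UMI found in a cell of thinned depth says little about any single cell.

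Between the libraries, the long forms had the largest ratios of the family in neutrophils. Slfn5 went from 204 UMIs (81.5 CPM) in 4T1P to 1502 UMIs (229 CPM) in 4T1M, a log2 ratio of 1.49 (1.28 to 1.71), and stood 13th from the top among the 3836 neutrophil genes that reached 20 CPM in either library. Slfn8 had a log2 ratio of 1.18 (0.85 to 1.52), 41st from the top, and Slfn9 one of 1.34 (0.49 to 2.30) on 13 and 86 UMIs, an interval that holds that of Slfn5. The ratios of all long forms were thus over 2-fold in neutrophils, but only the interval of Slfn5 lay wholly above 2-fold. The interval of Slfn9 also included the ratios of Slfn2 and Slfn1. Slfn2 was higher by 0.62 (0.57 to 0.67), Slfn1 by 0.51 (0.40 to 0.63) and Slfn4 by 0.25 (0.18 to 0.33). Slfn3, with 0 UMIs in 4T1P, was 1.53-fold above the level that 3 counts give in 4T1P, the exact lower limit of its ratio was 1.06-fold, and the exact intervals of its levels (up to 1.47 CPM, and 0.947 to 3.20 CPM) overlapped. All Schlafen UMIs together made up 2869 CPM of 4T1P neutrophils and 4267 CPM of 4T1M neutrophils, a log2 ratio of 0.57 (0.54 to 0.61), and the share of Slfn5 in them went from 2.84% to 5.37% while that of Slfn4 went from 25.1% to 20.1%.

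In neutrophils 5 of 7 genes (Slfn2, Slfn3, Slfn5, Slfn8 and Slfn9) were higher in 4T1M by 1.5-fold or more, against 16.6% of the 9980 genes for which the libraries summed to 10 UMIs or more. Slfn3 passed the minimum of UMIs through 4T1M alone. With the scaling factors of edgeR (TMM) or DESeq2, which lower every neutrophil ratio by 0.04, Slfn2 and Slfn3 fell under 1.5-fold and 3 genes were counted. The share over all genes is not given at those scalings. The median log2 ratio was 0.62 over the family and 0.05 over all genes. RNA of other cells also differed between the neutrophil sums. The macrophage gene Lgmn was at 57.9 CPM in 4T1P and 83.8 CPM in 4T1M, and the epithelial genes Epcam, Krt8, Krt18, Krt14 and Krt5 together at 69.5 and 13.0 CPM. Their part in the Schlafen differences was not tested.

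Macrophages gave another order, led by Slfn4. It went from 149 UMIs (17.0 CPM) in 4T1P to 708 UMIs (75.9 CPM) in 4T1M, a log2 ratio of 2.16 (1.90 to 2.42), the fourth from the top among the 5570 macrophage genes that reached 20 CPM in either library. Slfn1 followed with 1.34 (1.11 to 1.57), from 24.2 to 61.1 CPM, then Slfn5 with 1.17 (1.01 to 1.33) and Slfn8 with 1.07 (0.83 to 1.32). Slfn4 and Slfn1, which had the smallest ratios in neutrophils, thus had the largest in macrophages. Slfn9 was higher by 0.55 (0.15 to 0.96) and Slfn2 by 0.41, while Slfn3 had a log2 ratio of -0.68 (-1.76 to 0.37) on 21 and 14 UMIs. The Schlafen total was 869 CPM in 4T1P and 1305 CPM in 4T1M, a log2 ratio of 0.59 (0.55 to 0.63), close to that of neutrophils.

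In macrophages 4 of 7 genes (Slfn1, Slfn4, Slfn5 and Slfn8) were higher in 4T1M by 1.5-fold or more, against 7.64% of 12338 genes, and 1 of 7 (Slfn3) was lower by as much, against 8.15%. The median log2 ratio was 1.07 over the family and -0.03 over all genes. Neutrophil genes also differed in the macrophage sums. The 6 neutrophil check genes (Csf3r, Cxcr2, Retnlg, Ly6g, Mmp8 and Mmp9) together had 130 CPM in 4T1P and 159 CPM in 4T1M, which was 1.36% and 2.07% of their neutrophil level, and S100a8 and S100a9, which the rule limits, 0.343% and 0.834%. Slfn4 in macrophages was at 2.37% of its neutrophil level in 4T1P and at 8.86% in 4T1M, and Slfn1 at 7.94% and 14.1%. The neutrophil genes varied in this share, from 0.111% for Ly6g to 14.5% for Mmp9 in 4T1P and from 0.568% for Ly6g to 12.5% for Mmp8 in 4T1M. In macrophages Ly6g went from 3 to 12 UMIs, Cxcr2 from 2.51 to 7.93 CPM, Mmp8 from 14.3 to 39.9 CPM and Mmp9 from 55.8 to 16.8 CPM. The part of neutrophil RNA in the macrophage values of Slfn4 and Slfn1 was not tested.

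**Figure D2:**
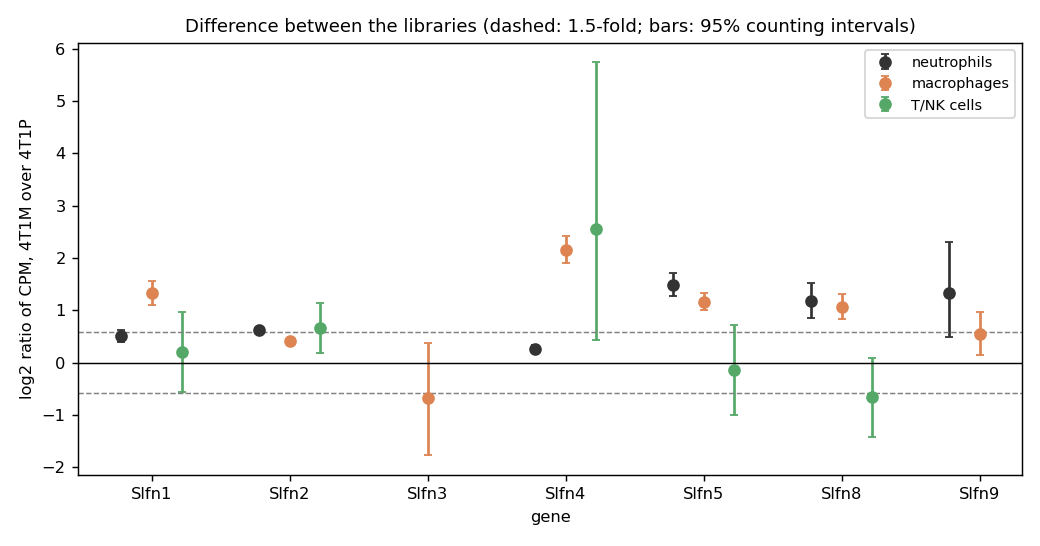
Log2 ratio of CPM, 4T1M over 4T1P, for each Schlafen gene with at least 10 UMIs in a class and UMIs in both libraries; colors give the class, bars exact conditional 95% intervals, and dashed lines a 1.5-fold difference. Slfn5, Slfn8 and Slfn9 lie well above the upper line in neutrophils and Slfn2 (0.62) just above it. Slfn4 and Slfn1 lie higher in macrophages than in neutrophils, and the T/NK intervals are wide.

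T/NK cells held few Schlafen UMIs, and the differences there rested on a handful of cells. Slfn4 had 2 UMIs in 4T1P and 14 in 4T1M, a log2 ratio of 2.56 (0.43 to 5.74), and Slfn2 a ratio of 0.66 (0.18 to 1.15), so that 2 of the 5 genes with at least 10 UMIs were higher in 4T1M by 1.5-fold or more, against 12.6% of 7734 genes. Slfn8, with -0.65 (-1.42 to 0.09), was the 1 gene lower by as much, against 20.1% of genes. However, 4 T/NK cells of 4T1M and 1 of 4T1P also met the neutrophil or macrophage rule. Without them, Slfn4 had 3 UMIs in 4T1M and a log2 ratio of 0.42 (-2.70 to 4.00), and Slfn2 had a ratio of 0.17 (-0.37 to 0.71). Then 0 genes were higher by 1.5-fold, a count with no share over all genes beside it. The neutrophil check genes moved in the same way, from 10.3 CPM in 4T1P and 156 CPM in 4T1M to 10.6 and 30.1 CPM. Slfn5 in T/NK cells had a ratio of -0.14 (-0.99 to 0.73), an interval that includes a 1.5-fold difference either way.

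Neutrophils rich in interferon-induced RNA carried more of every Schlafen gene but Slfn3, which was too rare to tell, and the long forms differed most. Cells were split by the UMIs of 44 interferon-induced genes, none of them a Schlafen gene, among 1000 thinned UMIs. Neutrophils with 5 or more such UMIs made up 27.8% of 4T1P (170 of 612, 24.3% to 31.5%) and 43.0% of 4T1M (723 of 1680, 40.6% to 45.4%), with similar depth in every bin (median 2930 to 3124 UMIs). In 4T1M, Slfn5 went from 40.9 CPM (31.9 to 51.6) in neutrophils with 0 to 1 such UMIs, over 105 CPM (91.4 to 120) with 2 to 4, to 448 CPM (423 to 474) with 5 or more, a log2 ratio of 3.45 (3.11 to 3.82) between the outer bins. In 4T1P the same step was 9.72 to 284 CPM, or 4.87 (4.03 to 5.85). Slfn8 was higher in the outer bin by 2.23 in 4T1M and 3.16 in 4T1P, and Slfn9 by 2.26 (1.11 to 3.64) in 4T1M, on 7 and 52 UMIs. The step was smaller for Slfn4, at 1.69 (1.58 to 1.81) and 1.66, for Slfn1, at 0.83 and 1.29, and smallest for Slfn2, at 0.32 and 0.46. Over all neutrophil genes the median of this ratio was 0.04 in 4T1M and 0.06 in 4T1P.

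Within these bins the family split in how it differed between the libraries. Slfn4 did not differ by more than counting error in any bin of neutrophils, with log2 ratios of 4T1M over 4T1P of -0.10 (-0.26 to 0.06), -0.05 (-0.21 to 0.11) and -0.06 (-0.17 to 0.05) from the lowest to the highest bin. Slfn2 was higher in 4T1M in every bin, by 0.61, 0.58 and 0.47, and its intervals (0.38 at the lowest) stayed clear of 0. Slfn5 was higher by 2.07 (1.18 to 3.09), 1.56 (0.95 to 2.24) and 0.65 (0.42 to 0.90), so that its difference was smallest among the cells richest in interferon-induced RNA. Slfn8 was higher by 1.27 and 1.71 in the lower bins and by 0.35 (-0.04 to 0.76) in the highest. The bins were not equal between the libraries, since the induced genes themselves were higher in 4T1M by 0.60 in the lowest bin and 0.24 in the middle one, and differed by -0.03 (-0.06 to 0.01) in the highest.

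In macrophages, Slfn4 was higher in 4T1M in the middle and highest bins, by 2.05 (1.56 to 2.56) and 1.58 (1.22 to 1.95), and by 0.76 (-0.17 to 1.65) in the lowest. Slfn5 was higher by 1.03, 0.95 and 0.44 and Slfn1 by 1.86, 0.90 and 0.74, with every interval above 0. Slfn4 thus differed between the libraries within bins of macrophages, and by less than counting error within bins of neutrophils. The induced genes differed by 0.67, 0.48 and 0.26 in these bins, and the lowest bin held shallower cells in 4T1M (median 4443.5 UMIs) than in 4T1P (7785 UMIs).

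**Figure D3:**
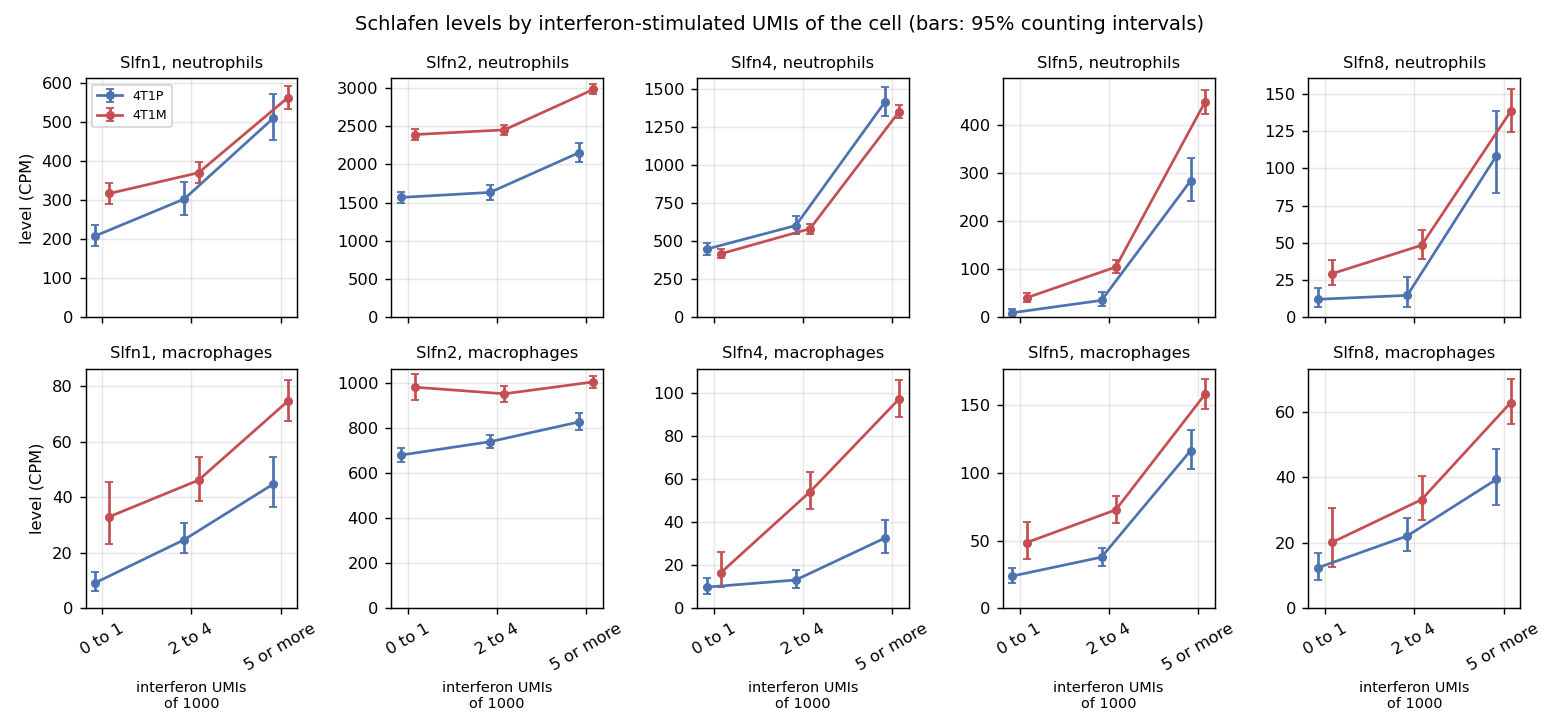
Levels in CPM of Slfn1, Slfn2, Slfn4, Slfn5 and Slfn8 in neutrophils (top) and macrophages (bottom) split by the UMIs of interferon-induced genes among 1000 thinned UMIs, for 4T1P (blue) and 4T1M (red), with exact 95% Poisson intervals. In neutrophils Slfn5 climbs most in proportion and Slfn2 least, and the intervals of Slfn4 overlap between the libraries in each bin of neutrophils but in macrophages only in the lowest.

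The interferon pathway around the family was described with a list chosen while earlier results of these data were known. Counts past 1.5-fold in this paragraph stand against 16.6% of all genes higher and 9.45% lower in neutrophils. In macrophages these shares were 7.64% higher and 8.15% lower. Of the 4 receptor chains, Ifnar1, Ifnar2, Ifngr1 and Ifngr2, 0 differed by 1.5-fold in either class, with log2 ratios of -0.15 to -0.06 in neutrophils and -0.25 to 0.15 in macrophages. Among the signal transducers, Jak2 was higher by 1.5-fold in both classes, with log2 ratios of 0.82 in neutrophils and 0.67 in macrophages. Stat2 was at 0.57 and 0.99, and Tyk2 at 0.97 (-0.21 to 2.39) in neutrophils, on 7 and 36 UMIs, and at -0.19 in macrophages. Irf9 was at 0.40 and 0.42, and Jak1 at 0.15 and 0.08. Of the 4 feedback genes (Usp18, Socs1, Socs3 and Isg15), 1 was higher in neutrophils and 2 in macrophages. Among induced genes, 26 of the 43 with enough UMIs were higher by 1.5-fold in neutrophils and 38 of 44 in macrophages, with medians of 0.77 and 0.90 and 0 lower. The induced genes with the most neutrophil UMIs were Isg15, a ubiquitin-like modifier (log2 ratio 0.43 in neutrophils and 1.17 in macrophages), Rsad2, which encodes the antiviral enzyme viperin (0.94 and 1.43), the GTPase gene Gbp2 (0.45 and 0.96) and Trim30a (0.40 and 0.71). Slfn5, at 1.49, thus lay above each of these 4 in neutrophils and below Rsad2 and beside Isg15 in macrophages. Of the 7 interferon genes listed, Ifnb1 had 3 and 71 UMIs in neutrophils (3.18, 1.57 to 5.49) and 579 and 553 in macrophages. Ifna2 had 10 and 3 in macrophages, and the others had 0 in both of these classes. Values of the interferon genes, Ifng among them, are not given for T/NK cells.

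Clustering of the retained cells without any Schlafen feature gave 13 clusters, of which 12 held at least 30 cells of each library. Slfn5 and Slfn8 were highest in cluster 3, whose leading genes included Isg20, Ddx60, Ifit1 and Gbp2 and in which 544 of 661 cells were neutrophils by the marker rule. Slfn5 there was at 255 CPM (212 to 305) in 4T1P and 519 CPM (488 to 550) in 4T1M, and Slfn8 at 121 and 166 CPM. Slfn4 (1040 and 1291 CPM) and Slfn1 (530 and 646 CPM) were also highest in cluster 3 in both libraries. Slfn2 was at 2861 and 3464 CPM there. Cluster 10, led by the granule genes Camp, Ngp and Ltf of immature neutrophils, had the least Slfn5 of the neutrophil clusters, at 1.81 CPM (1 UMI) and 38.3 CPM, while its Slfn4 was at 632 and 642 CPM. Slfn4 and Slfn5 thus parted in these granule-rich cells. In cluster 1, led by Ccl3, Il23a and Mreg, Slfn2 reached 2579 and 3523 CPM and Slfn5 went from 13.9 CPM (4.51 to 32.4) to 123 CPM (108 to 139). Of the 781 cells of cluster 1, 120 were from 4T1P and 661 from 4T1M. By the marker rule 386 of them were neutrophils, and 380 met none of the rules.

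Slfn4 was higher in 4T1M in each of the 5 clusters in which most cells were called macrophages. It went from 19.8 to 73.4 CPM in cluster 4, led by Cx3cr1 and C1qa, from 35.5 to 147 CPM in cluster 6, led by Thbs1 and Mmp12, from 5.82 to 63.6 CPM in cluster 7, led by hemoglobin genes, and from 33.4 to 105 CPM in cluster 11, led by Lyve1 and Cd163. In cluster 8 it went from 4.41 CPM (3 UMIs) to 51.6 CPM. Of the 197 cells of cluster 8, 154 were called macrophages by the marker rule although keratin, stromal and proliferation genes (Krt18, Krt8, Epcam, Postn and Top2a) led it, so the macrophage class holds cells whose leading genes go against its name. In all 5 clusters the intervals were apart, in cluster 7 on 3 and 32 UMIs. The part of neutrophil RNA in these values was not tested. Over the 12 clusters Slfn2 was higher in 4T1M in 11, with intervals apart in 10, Slfn4 in 11 (8 apart), Slfn1 in 11 (6 apart), Slfn5 in 10 (7 apart), Slfn8 in 9 (4 apart), Slfn9 in 10 (0 apart) and Slfn3 in 7 (0 apart). No cluster had any of the 7 genes lower in 4T1M with intervals apart. The same counts over all genes are not given, so these have no background. Counting intervals are also narrower, and so more often apart, for abundant genes such as Slfn2.

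**Figure D4:**
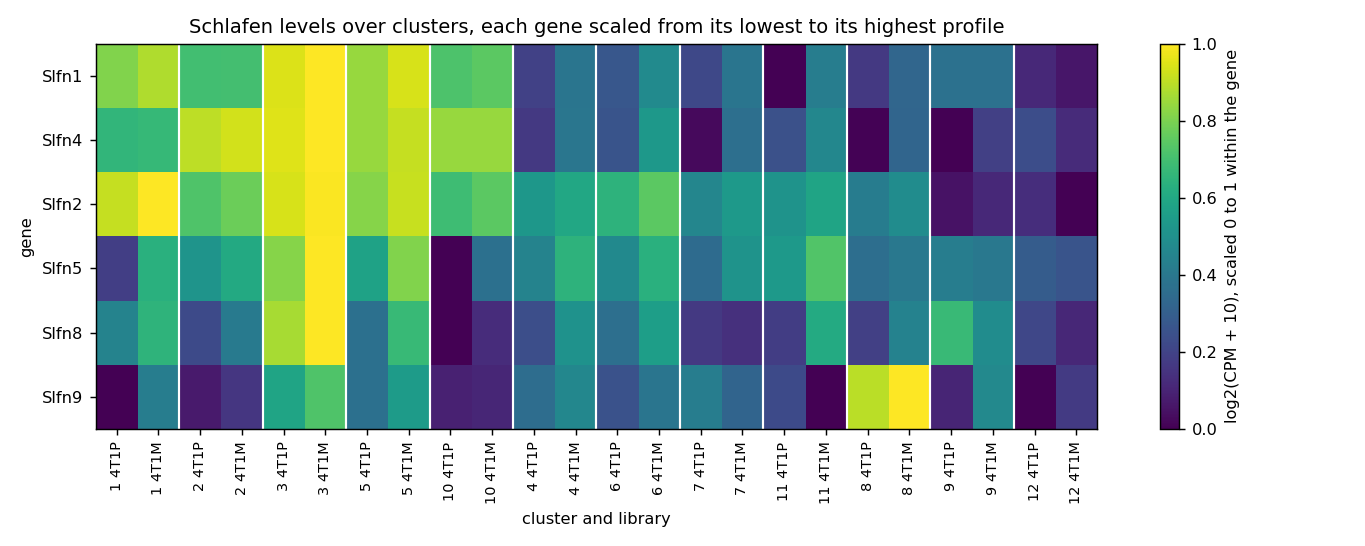
Levels of 6 Schlafen genes over 24 profiles of cluster and library, as log2(CPM + 10) scaled within each gene from its lowest profile (0, dark) to its highest (1, light); clusters 1, 2, 3, 5 and 10 hold most of the neutrophils, clusters 4, 6, 7 and 11 most of the macrophages, and cluster 9 the T/NK cells. Slfn1, Slfn4 and Slfn2 are light across the neutrophil clusters. Slfn1, Slfn4, Slfn5 and Slfn8 peak in cluster 3, and Slfn9 peaks in cluster 8.

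Over these 24 profiles the family fell into groups of like pattern. Pearson's r of log2(CPM + 10) was 0.90 between Slfn1 and Slfn4, 0.81 between Slfn2 and either of them, and 0.77 between Slfn5 and Slfn8. Across these groups r ran from 0.35 (Slfn4 and Slfn8) to 0.54 (Slfn1 and Slfn8). Slfn9 joined neither group, with 0.35 to Slfn5, 0.34 to Slfn8 and less to the others. The profiles of a library share its depth and its cells, so the values are descriptions. They also mix cell classes, and within the neutrophil clusters Slfn2 and Slfn4 did not rank alike. With both libraries summed, cluster 1 had 3378 CPM of Slfn2 but the least Slfn4 of these clusters (278 CPM). Cluster 2 had 1510 and 903 CPM, and cluster 3 was high in both (3352 and 1244 CPM). The genes most like Slfn4 were Stfa2l1 (0.96), Cstdc4, Il1r2, Stfa2 and G0s2 (0.95), and those most like Slfn1 were Il1r2 (0.94), Stfa2l1, Mxd1, 6530402F18Rik and Dgat2 (0.93). Il1r2, the decoy receptor for interleukin-1, thus stood in both lists. For Slfn2 they were Sod2 (0.97), Lilrb4a, Rab20, Ccl3 and Arg2 (0.95). Those most like Slfn5 were Ifit1 (0.92), Parp14, Dtx3l, Oasl2 and Parp10 (0.82). Those most like Slfn8 were Gbp5 (0.89), Parp14, Dpf2, H2-T23 and Dtx3l (0.79). Of the genes most like Slfn5 or Slfn8, Ifit1, Parp14, Oasl2 and Gbp5 were in the list of interferon-induced genes used for the bins. Slfn9, with few UMIs, was most like Cxcl10 (0.68), Nmi, Gbp7, Ifit2 and Pttg1 (0.60). The genes with an ISRE-type match in the printed windows, Slfn5, Slfn8 and Slfn9, had the largest steps over the interferon bins of neutrophils in both libraries, among genes with over 20 UMIs in 4T1M. For Slfn9 this order is uncertain, since the interval of its step included the step of Slfn4 in both libraries. In 4T1P the Slfn9 step was 4.23 (1.38 to 9.69), on 1 and 9 UMIs. In macrophages the genes with a match did not lead. The step of Slfn1 in 4T1P (2.30) equalled that of Slfn5, and the step of Slfn4 in 4T1M (2.56) was the largest. This is a description over few genes, with no test.

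Cells just inside and outside the neutrophil threshold had overlapping intervals for Slfn5 and Slfn4 in both libraries. In 4T1M, cells with 1.5% to 2.0% of UMIs from S100a8 and S100a9 (106 cells) had 247 CPM of Slfn5 and 740 CPM of Slfn4, and those with 1.0% to 1.5% (134 cells) had 275 and 575 CPM. In 4T1P these values were 65.9 and 296 CPM in 31 cells inside and 154 and 395 CPM in 34 cells outside. Slfn2 in 4T1P was lower inside, at 1622 CPM (1404 to 1865), than outside, at 2152 CPM (1913 to 2412), with intervals apart. The Slfn2 intervals in 4T1M overlapped.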

How the data were processed

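Per the labels and the methods, the authors aligned the reads of both droplet libraries to GRCm38 (mm10), and the submitters' processing notes name Cell Ranger 4.0.0. The deposited values are raw counts of UMIs per gene and barcode, without normalization. Barcodes were filtered with the limits given in the methods, which kept 5187 cells here, more than the paper reports. No doublets were removed. The rule for neutrophils, macrophages and T/NK cells was applied, a T/NK cell staying one whatever else it met. The paper classed its cells by another method, so the cells of a class are not the same. For each class and library, summed UMIs were expressed as CPM with Poisson intervals (exact), ratios with exact conditional intervals and shares with exact binomial (Clopper-Pearson) intervals, all at 95%. No test was run, since each condition has 1 library. A gene needed 10 UMIs in both libraries together, a fold of 1.5 was counted as a difference, and a gene at 0 was set to 3 counts. The code for ratios and their intervals was first tested on simulated counts with known ratios. edgeR 4.0.16 and DESeq2 1.42.0 gave scaling factors only. Clusters came from scanpy 1.11.5 with leidenalg 0.10.2 (3000 variable genes, 25 components, 20 neighbors, resolution 0.75). Python 3.11.15, scipy 1.17.1 and R 4.3.3 were used.

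The genes, cell classes and gene lists were chosen with earlier results of these data known. Named are all 7 Schlafen genes and other features of that name, the receptors, transducers and 4 most abundant induced genes of the interferon list, and, for each Schlafen gene with at least 200 UMIs, the 5 genes (at least 500 UMIs) with the highest Pearson r over clusters. The other listed interferon and feedback genes, Tyk2's UMIs, and the marker and leading cluster genes are named outside that rule. Some listed genes are not reported here. Alternatives were another scaling, mitochondrial limit, gene limit, marker threshold, treatment of cells meeting 2 rules, equal weight per cell, the deepest cells left out, and other minimums, folds and thinning depths.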

Additional observations from a re-analysis of the deposited data

How the results depend on the processing

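No paired analysis was possible because each condition has 1 library. The count of 5 Schlafen genes higher in 4T1M by 1.5-fold in neutrophils became 3 under edgeR's TMM factors, DESeq2's size factors, an S100a8 and S100a9 share of at least 3%, the 5% of cells with the most UMIs left out, and a fold of 2, each of which lost Slfn2 (1.54-fold) and Slfn3 (1.53-fold over the level of 3 counts), and also under a minimum of 100 UMIs, which left out Slfn3 and Slfn9. It was 4 with a mitochondrial limit of 5%. Against the level of 3 counts, the log2 ratio of Slfn3 turned from 0.61 to -0.10 under the S100 share of 3% and to -0.19 without the deepest cells. With each cell weighing the same, Slfn9 (1.68) stood above Slfn5 (1.45). Slfn5, Slfn8 and Slfn9 stayed over 2-fold higher in neutrophils under each of the 8 alternatives that change their ratios (lowest log2 ratios 1.35, 1.02 and 1.13). In macrophages the count of 4 stayed 4 or 5, and Slfn4 ranged from 1.83 (mitochondrial limit of 5%) to 2.48 (no upper limit of genes). Slfn3 in macrophages, on few UMIs, turned from -0.68 to 0.31 with a mitochondrial limit of 5% and to 0.055 with each cell weighing the same, and the cause was not tested. In T/NK cells the count of 2 became 0 without cells meeting 2 rules, an alternative chosen after seeing the data. Shares over all genes are given for the main setting only (16.6% in neutrophils, 7.64% in macrophages and 12.6% in T/NK cells). The counts under the alternatives therefore have no background and describe the Schlafen genes alone. Both scalings put the log2 shift between the libraries at 0.04 in neutrophils and -0.03 in macrophages. At the depth of 4T1P neutrophils, 3 counts correspond to 1.199 CPM, so Slfn3 and Slfn9 are limited by few UMIs.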

Other observations

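Slfn9 was highest outside the neutrophils, among the 24 profiles of cluster and library. In cluster 8, whose 197 cells (154 of them called macrophages by the marker rule) were led by Krt18, Igfbp7, Fabp4 and the proliferation gene Top2a, it was at 41.2 CPM (27.4 to 59.5) in 4T1P and 51.6 CPM (34.5 to 74.1) in 4T1M, and in barcodes with over 5000 detected genes, which the cell filter removed (136 and 49 barcodes), at 37.5 CPM (32.7 to 42.9) and 38.6 CPM (30.5 to 48.3). Slfn4 in those barcodes was at 3.01 CPM in 4T1P and 57.2 CPM in 4T1M.

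The cells that met none of the rules (243 in 4T1P and 705 in 4T1M) had levels between those of neutrophils and macrophages for Slfn1, Slfn2 and Slfn4 in both libraries, with log2 ratios of 4T1M over 4T1P of 0.96 (0.70 to 1.23), 0.76 (0.68 to 0.84) and 0.94 (0.72 to 1.16). Slfn5 went from 96.3 to 187 CPM there.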
